A study of Mus musculus with 4 samples.

Results

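Keratins of the interfollicular, wounded and nail bed epidermis were followed in regenerating mouse digit tips. They are 10 genes, chosen by symbol, and all 10 were found in a table of 45706 genes. They fall into 3 groups by role. Krt5, Krt14 and Krt15 belong to basal keratinocytes, Krt1, Krt10 and Krt77 to suprabasal layers, and Krt6a, Krt6b, Krt16 and Krt17 to wounded epidermis and nail bed. The tissue was the digit tip regenerate taken 14 days after amputation, with 1 RNA-seq library for each of 4 genotypes. These were wildtype, a conditional knockout (cKO) of Sp6, a cKO of Sp8, and a cKO of both genes (Sp6+Sp8 cKO, here the double cKO). Sp6 and Sp8 encode zinc-finger transcription factors of the epidermis. The knockouts were induced with tamoxifen at 75 mg/kg on 5 days in a row, followed by 5 days of rest before the amputation. The protocols describe amputations through either of the last 2 bones of the digit and do not say which one these libraries had. Whether the wildtype animals had tamoxifen, which Cre line was used, and how many digits or animals made up a library are facts that the sources used here do not state, and the same holds for strain, age and sex. The counts are per gene, and mutant transcripts without the excised part can still add to them.

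Keratins are the intermediate filament proteins of epithelia, and each filament is built from a type I and a type II chain paired with one another. Dividing basal keratinocytes make the pair of KRT5 (type II) and KRT14 (type I), and cells that leave the basal layer switch to KRT1 (type II) and KRT10 (type I). Injury adds KRT6 (type II) with KRT16 and KRT17 (type I), which the nail bed also makes without injury. In the mouse genome (GRCm38) the type I members lie on chromosome 11, from 99385254 to 100261029, in the order Krt10, Krt15, Krt14, Krt16 and Krt17. The type II members lie on chromosome 15, from 101676023 to 101869705, in the order Krt6b, Krt6a, Krt5, Krt1 and Krt77. All 10 are transcribed from the minus strand.

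With 1 library per genotype there was no replicate check, and no difference below was tested against variation between animals. The cKO libraries are batch 1 and the wildtype library is batch 3 in the labels, so batch and knockout cannot be told apart in a comparison with wildtype. The cKO libraries can be compared with one another inside batch 1. Levels are given as CPM, the usual unit of counts scaled for the depth of each library, whose counts summed to between 12588511 and 21834883. Intervals are exact 95% intervals for counting error only. A gene was past the size rule when it differed at least 2-fold (a log2 ratio of at least 1 in size), had a CPM of at least 1 in either library, and had an interval of the ratio that excluded 1. Sp6 stood at 97.7 CPM in wildtype, 29.2 in the Sp6 cKO, 95.6 in the Sp8 cKO and 57.8 in the double cKO, so its transcripts were reduced only in part in the double cKO. Sp8 stood at 63.9, 66.1, 16.8 and 13.4 CPM in the same order. The 5 non-keratin keratinocyte markers (Trp63, Itga6, Col17a1, Dsg3 and Sfn) were present in every library and summed to between 2481 and 2998 CPM, highest in wildtype. Fibroblast markers summed to between 12379 and 15630 CPM, whereas muscle markers summed to at most 0.390 CPM and Myh4 was at 0 in all 4 libraries. In such bulk tissue, fewer cells of a type and less RNA per cell cannot be told apart.

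Most of the keratins differed little between the genotypes. Krt10 had the highest level per kilobase of exon in every library, followed by Krt1, and Krt77 had the lowest. The 10 genes together took 2.15% of all counts in wildtype, 2.13% in the Sp6 cKO, 1.82% in the Sp8 cKO and 1.74% in the double cKO. Only Krt77 passed the size rule, in 3 of the 6 pairs of libraries, where between 3.10% and 5.79% of all genes compared passed it. Some differences were arranged by deletion in 3 ways, which were grouped after the values were seen. Krt15 and Krt77 were lower in both libraries with the Sp6 deletion, and Krt1 and Krt10 in both with the Sp8 deletion. Krt6a, Krt6b and Krt16 were higher than wildtype in both single knockouts and lower in the double cKO. Ratios of a deletion with opposite signs with and without the other deletion, in either direction, were seen in 9.69% of all genes. Krt15, Krt77, Krt1 and Krt10 were also lowest in the double cKO, and the share of all genes lowest there was not counted. In either direction, 36.8% of all genes did not overlap between libraries with and without the Sp6 deletion, and 30.0% for the Sp8 deletion.

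**Figure D1:**
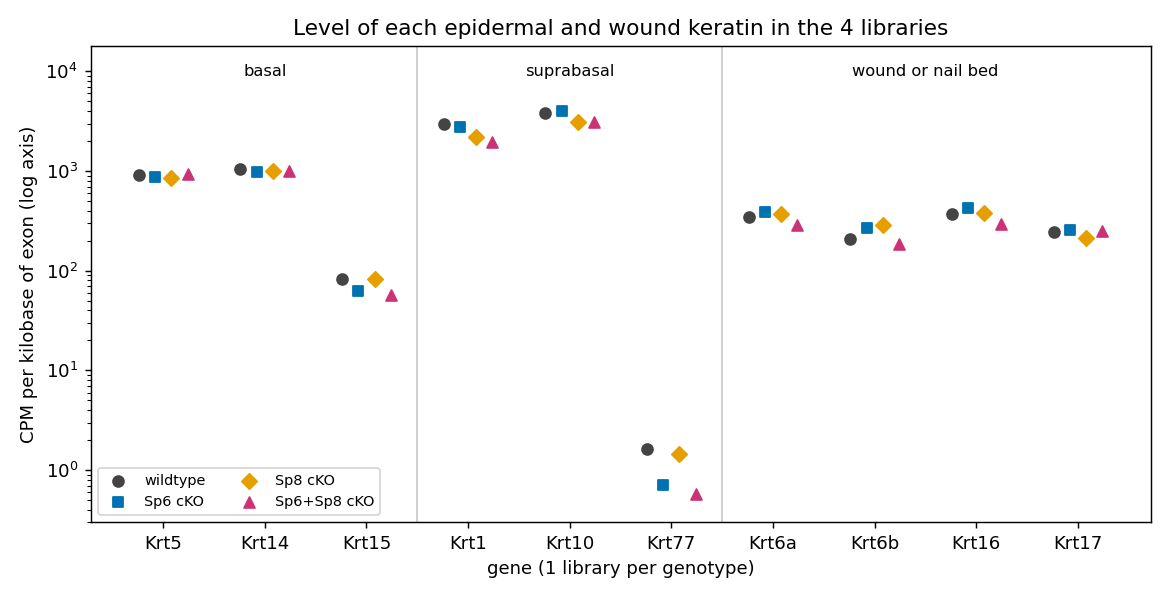
CPM per kilobase of exon (log axis) for each of the 10 keratins in the 4 libraries, 1 point per library, grouped by role. Krt10 and Krt1 sit at the top in every library, and Krt77, between 0.577 and 1.63, lies far below all others.

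The 3 genes of the basal layer did not behave alike. Krt5 stood at 1997 CPM in wildtype, 1900 in the Sp6 cKO, 1856 in the Sp8 cKO and 2057 in the double cKO. Krt14, its filament partner, stood at 1799, 1679, 1713 and 1701 CPM in the same order. Both genes were nearly level across the libraries, with log2 ratios to wildtype between -0.11 and 0.04. Per kilobase of exon, Krt5 and Krt14 were within a narrow range of one another, at 909 and 1060 in wildtype, and the count of Krt5 per count of Krt14 was 1.11, 1.13, 1.08 and 1.21. Krt15, a type I keratin of basal cells that is also used to mark the hair follicle bulge, was much scarcer, at 139.7 CPM in wildtype, 106.7 in the Sp6 cKO, 141.2 in the Sp8 cKO and 96.8 in the double cKO. The libraries with the Sp6 deletion were thus the low ones, and wildtype and the Sp8 cKO stood close together. Against wildtype, Krt15 was 1.31-fold lower in the Sp6 cKO (95% interval 1.23 to 1.40) and 1.44-fold lower in the double cKO (1.36 to 1.54). Within batch 1, it was 1.46-fold lower in the double cKO than in the Sp8 cKO (1.36 to 1.56), and none of these differences reached the size rule. The ratio of Krt15 to Krt14 counts within a library, which needs no scaling between libraries, was 0.0777 in wildtype, 0.0635 in the Sp6 cKO, 0.0824 in the Sp8 cKO and 0.0569 in the double cKO.

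Genes of the basal layer outside the keratins give the setting for these values. None of 12 such genes, which encode laminin, integrin and hemidesmosome proteins among others, passed the size rule in any of the 6 comparisons. Between 3.10% and 5.79% of all genes passed it in these. Their median log2 ratio to wildtype was -0.22 in the Sp6 cKO, -0.21 in the Sp8 cKO and -0.30 in the double cKO, where the median over all genes compared was -0.01, -0.01 and -0.02. The largest difference from wildtype was that of Itga3 (-0.63) in the Sp8 cKO and that of Lamb3 (-0.64) in the double cKO. Trp63, the master transcription factor of stratified epithelia, was at 488.4, 471.9, 445.1 and 470.9 CPM. Between the cKO libraries the medians of this list lay between -0.01 and 0.02.

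The suprabasal keratins Krt1, Krt10 and Krt77 come next. Promoter sequences from RefSeq (GRCm38.p6) were matched for 4 of the 10 genes. Those of Krt10 and Krt77, whose levels were lower with different deletions, are shown with that of Krt5 as the basal gene for comparison. Each is the 250 bases ahead of the RefSeq transcript start, minus strand, read 5′ to 3′, at chr11:99389365-99389614 for Krt10, chr15:101869706-101869955 for Krt77 and chr15:101712906-101713155 for Krt5. Capitals mark matches on either strand to 5 motifs. They are the CACC box with the letters CCACCC and the GC box with the letters CCGCCC. The others are the TATA box letters TATAAA, their common variant with the letters TATATA, which can overlap, and the letters TGANTCA of an AP-1 site. CACC and GC boxes are letters that zinc-finger factors of the Sp family are known to bind.
Krt10: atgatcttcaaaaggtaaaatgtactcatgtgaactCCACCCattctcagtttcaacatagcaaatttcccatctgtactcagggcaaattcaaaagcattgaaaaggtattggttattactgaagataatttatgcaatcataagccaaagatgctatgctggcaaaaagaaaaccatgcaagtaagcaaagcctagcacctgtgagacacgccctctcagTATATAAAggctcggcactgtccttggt
Krt77: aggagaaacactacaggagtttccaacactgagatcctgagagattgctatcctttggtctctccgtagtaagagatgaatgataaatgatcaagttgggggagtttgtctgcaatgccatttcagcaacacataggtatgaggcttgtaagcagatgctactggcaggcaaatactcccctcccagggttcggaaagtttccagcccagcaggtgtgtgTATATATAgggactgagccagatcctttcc
Krt5: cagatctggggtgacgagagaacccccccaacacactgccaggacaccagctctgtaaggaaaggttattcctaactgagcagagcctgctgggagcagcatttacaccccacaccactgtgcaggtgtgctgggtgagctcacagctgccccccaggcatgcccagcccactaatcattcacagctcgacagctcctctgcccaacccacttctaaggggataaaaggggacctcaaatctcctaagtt

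In the Krt10 window, CCACCC lay 214 to 209 bases before the start, and a TATAAA match 26 to 21 bases before it overlapped a TATATA match at 28 to 23. The Krt77 window held a pair of overlapping TATATA matches at 30 to 25 and 28 to 23, and neither a CACC nor a GC box. None of the motifs was found in the Krt5 window. Of 32851 mouse promoter windows of the same length, 28.1% held CCACCC, 32.7% held CCGCCC, 12.4% held TATAAA, 5.25% held TATATA and 6.75% held the AP-1 letters. The RefSeq window of Krt14 lies inside the transcribed region of the GENCODE M21 gene and is not shown.

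Krt1 stood at 7349 CPM in wildtype, 6827 in the Sp6 cKO, 5436 in the Sp8 cKO and 4842 in the double cKO. The libraries with the Sp8 deletion were the low ones. Against wildtype, Krt1 was 1.35-fold lower in the Sp8 cKO (95% interval 1.34 to 1.36) and 1.52-fold lower in the double cKO (1.504 to 1.531). Krt10, the filament partner of Krt1, stood at 8086, 8459, 6626 and 6501 CPM in the same order of libraries. It was 1.22-fold lower than wildtype in the Sp8 cKO (1.21 to 1.23) and 1.24-fold lower in the double cKO (1.23 to 1.25). Again the libraries with the Sp8 deletion did not overlap the others, which was so for 30.0% of all genes in either direction. Within batch 1, Krt1 was 1.26-fold lower and Krt10 1.28-fold lower in the Sp8 cKO than in the Sp6 cKO. They were 1.41-fold and 1.30-fold lower in the double cKO than in the Sp6 cKO. The difference of Krt10 between the double cKO and the Sp8 cKO was small, at 1.02-fold (1.01 to 1.03).

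The balance of the Krt1 and Krt10 pair also differed. The count of Krt1 per count of Krt10 was 0.909 in wildtype (95% interval 0.903 to 0.915), 0.807 in the Sp6 cKO (0.7999 to 0.8143), 0.820 in the Sp8 cKO (0.812 to 0.829) and 0.745 in the double cKO (0.738 to 0.752). Wildtype, from another batch than the rest, was the highest and the double cKO the lowest. Krt2, a type II keratin of upper suprabasal cells, which was not among the 10 genes, stood at 5781, 6883, 5822 and 4800 CPM.

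Krt77, a type II keratin known from suprabasal epidermis and the ducts of sweat glands, was scarce, with 104 counts in wildtype, 27 in the Sp6 cKO, 54 in the Sp8 cKO and 26 in the double cKO. This is 4.78, 2.09, 4.29 and 1.69 CPM, with the libraries of the Sp6 deletion below the others. It was 2.28-fold lower than wildtype in the Sp6 cKO (95% interval 1.48 to 3.63) and 2.83-fold lower in the double cKO (1.83 to 4.53). Within batch 1 it was 2.54-fold lower in the double cKO than in the Sp8 cKO (1.56 to 4.22). These 3 differences passed the size rule. Between the Sp8 cKO and the Sp6 cKO the ratio of CPM was 2.05-fold (1.27 to 3.38), but its log2 value with the prior count, 0.99, was just short of the rule, and the Sp8 cKO was 1.12-fold below wildtype (0.796 to 1.58), which is within counting error. With so few counts the intervals of Krt77 are wide, and no difference between the Sp6 cKO and the double cKO was detectable at this depth. Markers of sweat glands, a set of 7 genes all detected in every library, summed to 371.3 CPM in wildtype, 249.98 in the Sp6 cKO, 287.2 in the Sp8 cKO and 293.7 in the double cKO. Single markers of the set differed in their order. Aqp5, the water channel of sweat gland cells, stood at 64.2, 41.4, 51.4 and 31.3 CPM, Slc12a2 was lowest in the Sp6 cKO, and Foxa1 and Foxc1 were highest in the double cKO. The part of sweat gland content in the Krt77 values was not tested.

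Summed over the 3 genes, suprabasal keratins stood at 15439 CPM in wildtype, 15287 in the Sp6 cKO, 12067 in the Sp8 cKO and 11345 in the double cKO. Their count per count of basal keratin was 3.92 (95% interval 3.89 to 3.95), 4.15 (4.11 to 4.19), 3.25 (3.22 to 3.29) and 2.94 (2.92 to 2.97) in the same order. On sums, the libraries with the Sp8 deletion thus held less suprabasal keratin RNA for each basal keratin RNA. These sums are set almost wholly by Krt1 and Krt10. On means of log2 CPM, which give Krt77 the same weight, the ratio was lower than wildtype also in the Sp6 cKO, by a log2 change of -0.21 against 0.08 on sums. Between the Sp8 cKO and the Sp6 cKO, both of batch 1, the log2 change on means was -0.030 against -0.35 on sums, so the lower ratio with the Sp8 deletion rests on Krt1 and Krt10.

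Other genes of suprabasal and cornifying cells differed mainly in the double cKO. Of 17 such genes outside the keratins none passed the size rule in the Sp6 cKO or the Sp8 cKO against wildtype, with medians of 0.02 and -0.08. Of all genes, 4.40% and 3.82% passed it there. In the double cKO 1 of the 17, Krtdap, was lower past the rule, and the median was -0.52 with 14 of 17 ratios below 0. Among all genes, 2.95% were lower past the rule there, and 51.9% of ratios were below 0. Krtdap, which encodes a secreted keratinocyte differentiation protein, stood at 564.4, 587.3, 595.6 and 271.1 CPM. Lor (loricrin, a cornified envelope protein), Asprv1 (a protease that processes filaggrin) and Tgm1 (a transglutaminase that cross-links the envelope) were next, at -0.79, -0.71 and -0.66. In the Sp8 cKO the largest differences were those of Ivl (0.58), Casp14 (0.37), Tgm1 (-0.24) and Flg2 (-0.23), so Krt1 (-0.43) lay below every gene of that list there. In the Sp6 cKO, Casp14 and Ivl were at 0.63 and 0.60. Within batch 1, 17 of 17 ratios of the double cKO to the Sp6 cKO were below 0 (median -0.40), against 51.5% of all genes. Of its ratios to the Sp8 cKO, 15 of 17 were below 0 (median -0.39), against 52.5% of all genes. Krtdap was lower past the rule in both, as were 2.08% and 2.80% of all genes.

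The wound and nail bed keratins were modestly higher than wildtype in the single knockouts for 3 of 4 genes and lower in the double cKO for the same 3. Krt6a and Krt6b, the type II chains, are adjacent close copies, with 97.8% identity over the coding sequence, so part of their reads cannot be assigned to either gene. Of the 31-base words in their transcripts, 55.1% for Krt6a and 57.0% for Krt6b were also found in transcripts of other genes, mostly in the other copy. Only reads that cover a difference tell the copies apart. The stretch of 90 coding bases with the most differences is shown for that reason, at chr15:101692483-101692572 for Krt6a and chr15:101678302-101678391 for Krt6b (GRCm38, minus strand, from GENCODE M21 transcripts). Capitals mark the 12 bases that differ.
Krt6a: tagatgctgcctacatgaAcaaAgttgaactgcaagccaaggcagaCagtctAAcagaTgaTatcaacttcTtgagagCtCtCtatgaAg
Krt6b: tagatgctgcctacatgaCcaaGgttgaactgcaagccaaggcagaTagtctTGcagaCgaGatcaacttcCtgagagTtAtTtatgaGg

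Krt6a stood at 795.2 CPM in wildtype, 876.0 in the Sp6 cKO, 852.6 in the Sp8 cKO and 658.4 in the double cKO. Krt6b stood at 469.4, 606.0, 648.3 and 415.9 CPM in the same order. For both genes the single knockouts were the high libraries and the double cKO the low one. Krt6b was 1.29-fold higher than wildtype in the Sp6 cKO (95% interval 1.25 to 1.33) and 1.38-fold higher in the Sp8 cKO (1.34 to 1.42). Against the double cKO it was 1.46-fold higher in the Sp6 cKO (1.41 to 1.51) and 1.56-fold higher in the Sp8 cKO (1.51 to 1.61), both within batch 1. The sum of Krt6a and Krt6b, which does not depend on how their shared reads were divided, kept this order, at 1265, 1482, 1501 and 1074 CPM. Log2 ratios of the sum to wildtype were 0.23, 0.25 and -0.24. The share of Krt6b was higher in the cKO libraries, at 0.590 counts per count of Krt6a in wildtype (0.576 to 0.605), 0.692 in the Sp6 cKO (0.672 to 0.712), 0.760 in the Sp8 cKO (0.739 to 0.783) and 0.632 in the double cKO (0.612 to 0.652).

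Krt16 and Krt17, the type I chains, went different ways. Krt16 stood at 576.8 CPM in wildtype, 664.6 in the Sp6 cKO, 598.0 in the Sp8 cKO and 456.0 in the double cKO, the same order of the single and double knockouts against wildtype as for Krt6a and Krt6b. It was 1.15-fold higher than wildtype in the Sp6 cKO (95% interval 1.12 to 1.18) and 1.27-fold lower in the double cKO (1.23 to 1.30). Krt17 stood at 382.2, 399.2, 333.4 and 391.9 CPM, so it was lowest in the Sp8 cKO and nearly level in the other libraries. The count of Krt16 per count of Krt17 was 1.51, 1.66, 1.79 and 1.16, with the double cKO below the rest. Of the 31-base words of Krt16, 51.9% also occurred in other genes, 32.2% in the predicted gene Gm11597 and 19.7% in Krt14. Gm11597 had 1 count in wildtype and 0 elsewhere. For Krt17 the shared part was 15.8%, for Krt14 29.2%, and for Krt1, Krt10 and Krt77 at most 0.586%.

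Set against the basal keratins, the wound and nail bed group had 0.565 counts per basal count in wildtype (95% interval 0.559 to 0.571), 0.691 in the Sp6 cKO (0.681 to 0.701), 0.655 in the Sp8 cKO (0.646 to 0.665) and 0.499 in the double cKO (0.492 to 0.506). Ratios of a deletion to its control had opposite signs with and without the other deletion, with intervals excluding 1 on both sides, for 5 of the 10 keratins. The same held for 9.69% of all genes and for 27.1% of the 2054 genes with a mean CPM of at least 100, where counting intervals are narrow. On means of log2 CPM the wound to basal ratio in the double cKO was level with wildtype, a log2 change of 0.0020 against -0.18 on sums.

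**Figure D2:**
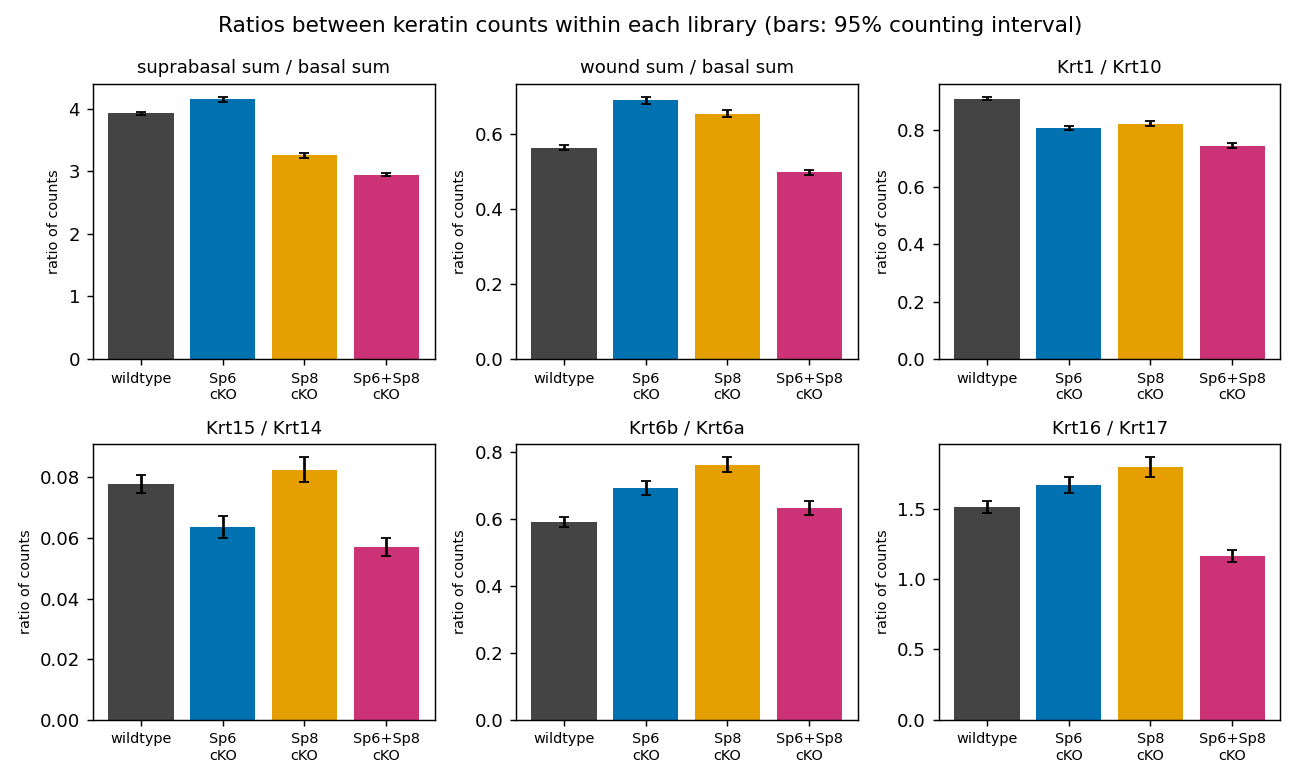
Ratios between counts of keratins inside each library, which do not depend on scaling between libraries; each bar is 1 library, and the error bars are 95% counting intervals. Suprabasal per basal keratin is lower in the pair of libraries with the Sp8 deletion, and Krt15 per Krt14 is lower in the pair with the Sp6 deletion.

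Wound-activated keratinocyte genes outside the keratins were compared in the same way. Of 16 measured, 6 were higher past the size rule in the Sp6 cKO than in wildtype and 0 lower, with a median log2 ratio of 0.28. In the Sp8 cKO 2 were higher and 0 lower (median 0.10), and in the double cKO 6 were higher and 1, Sprr1b, was lower (median 0.69). Of all genes compared, 2.24%, 2.27% and 2.84% were higher past the rule in the same order, and 2.16%, 1.55% and 2.95% were lower. Within batch 1, the double cKO had 1 gene higher and 0 lower than the Sp6 cKO, with a median of -0.03 and 8 of 16 ratios below 0. Of all genes, 1.89% were higher and 2.08% lower there. Against the Sp8 cKO it had 6 higher and 0 lower, with a median of 0.56, beside 1.88% and 2.80% of all genes. The Sp8 cKO had 0 higher and 4 lower than the Sp6 cKO, beside 1.75% and 1.35% of all genes. The median was -0.36 there, with 12 of 16 ratios below 0, against 49.7% of all genes. S100a8 and S100a9, the subunits of calprotectin, were at 2.95 and 3.24 in the double cKO. S100a8 was highest in the double cKO, and stood at 8.83, 50.2, 30.6 and 69.2 CPM. Sprr1b, a cornified envelope precursor, stood at 404.2, 321.4, 242.0 and 172.0 CPM. T cell markers, a set of 3 genes, summed to 2.39, 18.5, 5.95 and 17.0 CPM. Neutrophil markers, a set of 4 genes, summed to 18.6, 14.9, 20.5 and 7.60 CPM. The part of either cell type in these values was not tested.

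By the size rule, 1 of the 10 keratins differed between the Sp6 cKO and wildtype, where 4.40% of all genes compared were past it in either direction. Between the Sp8 cKO and wildtype the count was 0 of 10, against 3.82% of all genes. It was 1 of 10 between the double cKO and wildtype, against 5.79%. Within batch 1 it was 0 of 10 for the Sp8 cKO against the Sp6 cKO (3.10% of all genes), 0 of 10 for the double cKO against the Sp6 cKO (3.97%) and 1 of 10 for the double cKO against the Sp8 cKO (4.68%). Each count of 1 was Krt77. Medians over the 10 genes against wildtype were -0.00 in the Sp6 cKO, -0.09 in the Sp8 cKO and -0.29 in the double cKO, beside medians of all genes between -0.02 and -0.01. These 3 comparisons share the wildtype library.

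**Figure D3:**
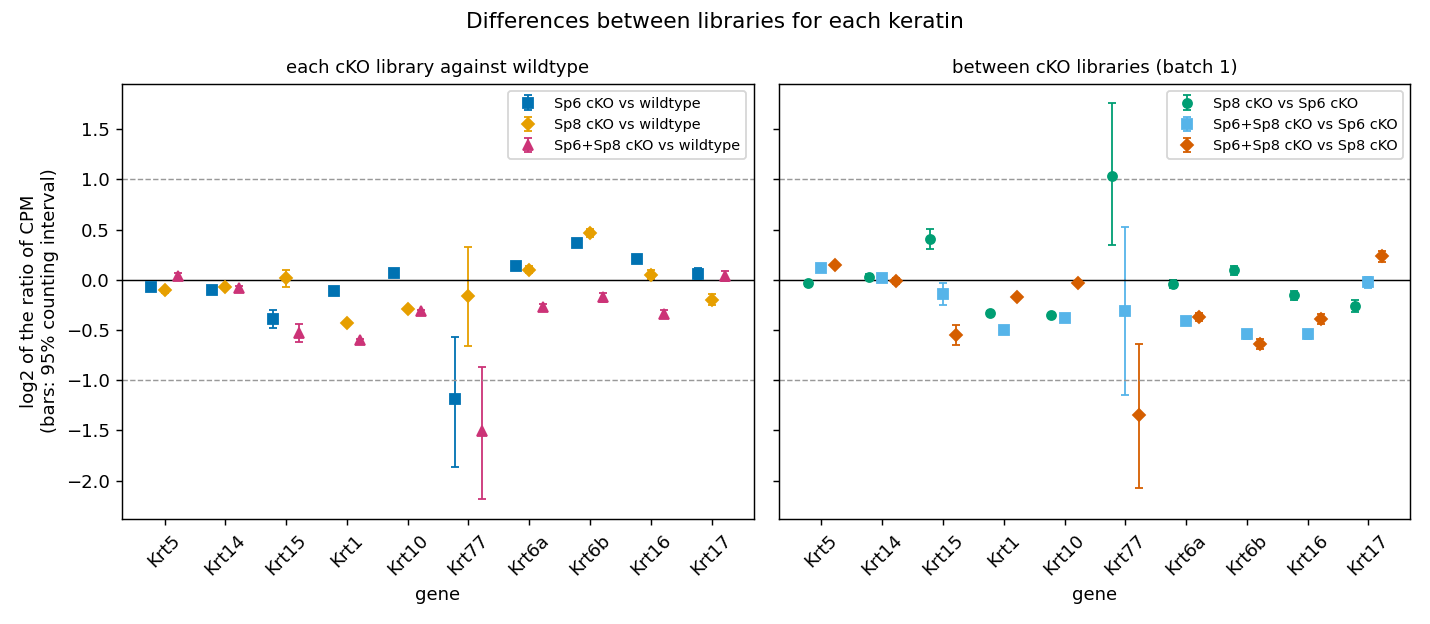
Log2 of the CPM ratio between libraries for each keratin, without a prior count, with 95% counting intervals; dashed lines mark a 2-fold difference, with comparisons to wildtype on the left and those among cKO libraries on the right. Krt77 is the 1 gene with points past the dashed lines, with wide intervals, and the points of the other genes lie between -0.64 and 0.47.

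A comparison of the 2 libraries carrying a deletion with the 2 lacking it was added after the values were seen. For the Sp6 deletion, 4 of 10 keratins did not overlap between the pairs, 3 lower (Krt14, Krt15 and Krt77) and 1 higher (Krt17), where 36.8% of 17332 genes did not overlap in either direction. With a gap of at least 0.25 on the log2 scale between the pairs, 2 of 10 remained, Krt15 and Krt77, both lower, against 6.95% of all genes. For the Sp8 deletion 2 of 10 did not overlap, Krt1 and Krt10, both lower, against 30.0% of all genes. Both kept a gap of at least 0.25, which 4.90% of all genes had. The gaps were -0.39 for Krt15, -0.99 for Krt77, -0.33 for Krt1 and -0.29 for Krt10. Since the wildtype library is one of the pair without a deletion in each case, batch and deletion cannot be told apart in part of each difference.

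Other keratins were taken from the lists of simple epithelial, of other epidermal to mucosal, and of hair and nail cortex keratins. Of 22 listed ones with a CPM of at least 1 in any library, 9 were lower and 1 higher without overlap by the Sp6 deletion. By the Sp8 deletion 6 were lower and 1 higher. The table held 51 genes named Krt and a number, and keratins outside the lists, such as Krt42, were not counted. Of all genes, 36.8% and 30.0% did not overlap in either direction. With a gap of at least 0.25, 1 was lower by the Sp6 deletion (Krt23), and by the Sp8 deletion 3 were lower (Krt4, Krt9 and Krt24) and 1 higher (Krt7). Such a gap was seen in 6.95% of all genes for the Sp6 deletion and in 4.90% for the Sp8 deletion. Krt23 stood at 27.3 CPM in wildtype and 27.7 in the Sp8 cKO, and at 14.4 in the Sp6 cKO and 16.2 in the double cKO. That is the arrangement of Krt15 and Krt77, with a gap of -0.75. Krt9, the keratin of footpad epidermis, stood at 728.2 CPM in wildtype, 635.3 in the Sp6 cKO, 449.5 in the Sp8 cKO and 461.6 in the double cKO, and Krt24 at 1051, 1024, 735.7 and 837.4. These follow the arrangement of Krt1 and Krt10, with gaps of -0.46 and -0.29. Krt7, a keratin of simple epithelia, had a gap of 0.45 the other way, at 3.96, 3.57, 5.72 and 5.46 CPM. Krt4, with a gap of -0.35, was already far below wildtype in the Sp6 cKO, at 1.75, 0.543, 0.397 and 0.325 CPM. These are 38, 7, 5 and 5 counts, too few to order the cKO libraries. In the list of other epidermal, palmoplantar, companion layer and mucosal keratins, 9 of 11 passed the CPM filter. Of these only Krt4, a mucosal keratin at 1.75 CPM in wildtype, was lower past the size rule in each cKO library. Among all genes compared, 2.16%, 1.55% and 2.95% were lower past it. The median of the list was -0.20, -0.23 and -0.61. Keratins of simple epithelia had no member past the rule, and Krt8, Krt18 and Krt19 stood between 2.92 and 4.37 CPM.

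**Figure D4:**
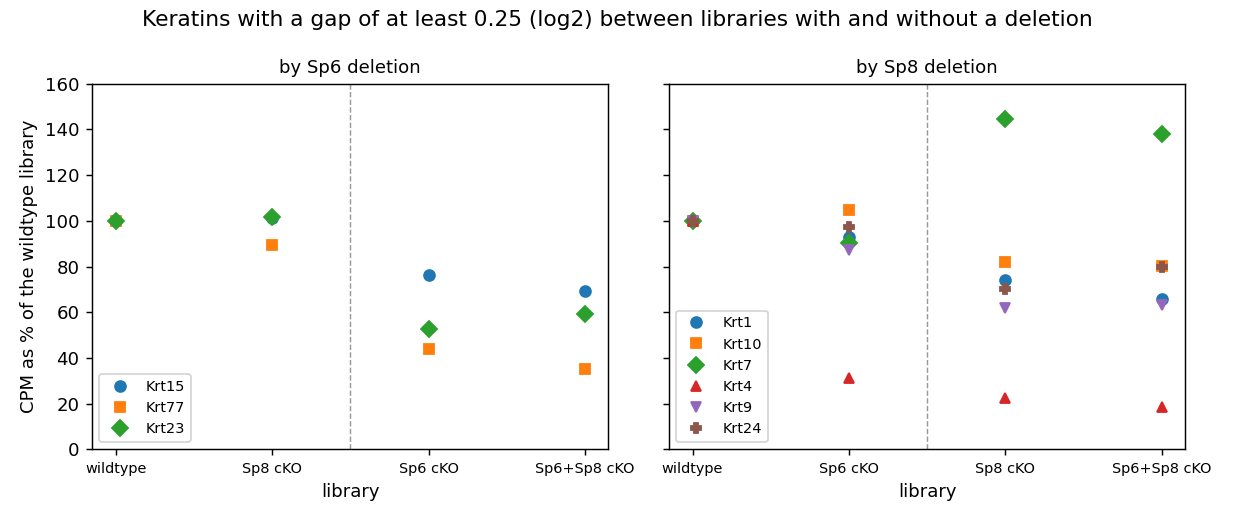
CPM as a percentage of the wildtype library, 1 point per library. Shown are those of the 10 genes and of the 22 listed other keratins with a gap of at least 0.25. The gap is on the log2 scale, between libraries with and without a deletion. The dashed line parts libraries without the deletion (left) from those with it (right). Krt77, Krt15 and Krt23 are lower with the Sp6 deletion, Krt1, Krt10, Krt9, Krt24 and Krt4 are lower with the Sp8 deletion, and Krt7 is higher with it. Krt4 has only 7, 5 and 5 counts in the Sp6 cKO, the Sp8 cKO and the double cKO, too few to order them.

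The keratins of hair and nail cortex, which form the hard keratin of these appendages, are a related set for comparison. The 9 genes found summed to 5407 CPM in wildtype, 5655 in the Sp6 cKO, 6280 in the Sp8 cKO and 3097 in the double cKO. Log2 ratios of the sums to wildtype were 0.06, 0.22 and -0.80, whereas those of the 10 epidermal and wound keratins were -0.01, -0.25 and -0.34. In the Sp8 cKO the cortex sum was therefore above wildtype and the sum of the 10 genes below it. Suprabasal keratins, almost wholly Krt1 and Krt10, made up 71.5% of the latter sum in wildtype and 66.3% in the Sp8 cKO. Their log2 ratio of sums in the Sp8 cKO was -0.36, against -0.09 for the basal group and 0.13 for the wound and nail bed group. None of the 9 was past the size rule in a single cKO against wildtype. Of all genes, 4.40% passed it there in the Sp6 cKO and 3.82% in the Sp8 cKO. In the double cKO 2, Krt33b and Krt83, were lower past it, as were 2.95% of all genes. Within batch 1, 4 of the 9 were lower past it in the double cKO than in the Sp6 cKO (median log2 ratio -0.95). Against the Sp8 cKO 5 of the 9 were lower past it (median -1.11). The shares of all genes were 2.08% and 2.80%. The difference between the families was not tested.

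The genes whose 3 ratios to wildtype lay nearest to the mean ratios of each role group were found among 9090 protein-coding genes with a CPM of at least 10 in every library. For the basal group they were Ap5b1, Blcap and BC017643, at distances of 0.0123 to 0.0253 on the log2 scale. For the suprabasal group they were Gjb2, a connexin of keratinocyte gap junctions, Ston2 and Smagp, at 0.0528 to 0.0601. The suprabasal mean ratios of -0.40, -0.29 and -0.78 average Krt77 with Krt1 and Krt10, whose ratios differ from them, and describe no single member. For the wound and nail bed group they were Idh2, Cul7 and Sdr42e1, at 0.0124 to 0.0261. The basal means of -0.19, -0.05 and -0.19 likewise average Krt15 (-0.39, 0.02 and -0.53) with the nearly level Krt5 and Krt14. The wound means of 0.19, 0.11 and -0.19 average Krt17 (0.06, -0.20 and 0.04) with Krt6a, Krt6b and Krt16. Within a distance of 0.1 there were 261 genes for the basal mean, 6 for the suprabasal mean and 59 for the wound mean. The likeness rests on 4 libraries.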

How the data were processed

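Poly-A RNA of digit tips, cut off at the last joint, was sequenced as strand-specific libraries, per the labels' protocols. The authors deposited estimated counts per gene, not scaled for depth; the submitters' processing notes name Salmon, STAR, featureCounts, edgeR, deepTools and Trim Galore 0.6.4, without roles, and build GRCm38. Settings and the annotation release are not stated there. The table held 1 further column of per-sample values, which was not used.

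Counts were rounded and scaled with TMM factors of edgeR 4.0.16 (R 4.3.3) over the 4 libraries. Log2 ratios used a prior count of 2. Intervals are exact Clopper-Pearson, conditional on the sum of both counts, and cover counting error only, since PCR reads without molecular identifiers are not independent molecules. Exon lengths and positions came from GENCODE M21 (98.8% of identifiers matched), from protein-coding transcripts alone. Depth was 21834883 counts in wildtype, 13054843 in the Sp6 cKO, 12588511 in the Sp8 cKO and 15146015 in the double cKO. All 10 members passed the CPM filter in all 6 comparisons.

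The members and gene lists were chosen with earlier results of these data known. All members were named, and of each list up to 4 genes per comparison by size of log2 ratio among those with a CPM of at least 5 in any library; other genes were named after their values were seen, and 1 gene that the rule names is not reported here. The size rule was tested on simulated counts with counting error alone, so the outcome does not cover variation between animals or batches. Alternatives were other scalings (DESeq2 1.42.0 size factors, totals, totals without the 20 most abundant genes, TMM without keratin genes), a prior count of 0.5, other CPM filters and a 1.5-fold limit. The tallies of genes with opposite signs and of other keratins without overlap were added after the data were seen.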

Additional observations from a re-analysis of the deposited data

Results flagged for a closer look

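For 5 of the 10 keratins, a deletion went with a higher level in the presence of the other gene and a lower level in its absence, or the reverse, with counting intervals that excluded no difference on both sides. Of all genes 9.69% met the same rule, and of genes with a mean CPM of at least 100, as 9 of the 10 keratins have, 27.1% did. No difference of this kind was tested, since each rests on 4 libraries. Krt6b showed it most, where the Sp6 deletion had a log2 ratio of 0.37 with Sp8 intact and -0.64 with Sp8 deleted, a difference of -1.01. For Krt16 these were 0.20 and -0.39, a difference of -0.60, and for Krt6a 0.14 and -0.37, a difference of -0.51. The Sp8 deletion gave the same 3 genes ratios of 0.47, 0.05 and 0.10 with Sp6 intact and of -0.54, -0.54 and -0.41 with Sp6 deleted. Krt5 went the other way, at -0.07 and 0.15 for the Sp6 deletion, a difference of 0.22. Krt10 had ratios of 0.06 and -0.03, a difference of -0.093, and the sign of the second changes with library totals without the 20 most abundant genes (0.01). In every case the first ratio is against wildtype, of batch 3, and the second lies within batch 1.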

How the results depend on the processing

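There was 1 library per group, so no replicate could be left out. No paired analysis was possible because each group holds 1 library. The log2 ratios of single keratins were recomputed, also with the sum of Krt6a and Krt6b in place of each. Of 312 such values 0 reversed among those past the size rule, and 7 others, none above 0.0391 in size, changed sign. Outside the counting interval of the main value lay 47, and 3 passed the rule only in an alternative. Scaling moved the median of all genes by at most 0.0484. Krt77 is the limit of the data: with a CPM of at least 5 no keratin passed the rule, so the count fell to 0 in the Sp6 cKO and in the double cKO against wildtype and to 0 in the double cKO against the Sp8 cKO, since Krt77 is then not compared. Between the Sp8 cKO and the Sp6 cKO it passed, making the count 1, with library totals (log2 ratio 1.01), with totals without the 20 most abundant genes (1.00), with a prior count of 0.5 (1.02) and at a 1.5-fold limit. That limit made the count 2 in the double cKO against wildtype (Krt1 added) and 2 against the Sp8 cKO (Krt6b added). A gap of at least 0.5 between libraries with and without a deletion left 1 keratin for Sp6 (Krt77) and 0 for Sp8.

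Genes past the rule, in the order the Sp6 cKO, the Sp8 cKO and the double cKO against wildtype, then the Sp8 cKO against the Sp6 cKO and the double cKO against the Sp6 cKO and the Sp8 cKO, numbered 743, 645, 976, 525, 669 and 790. With a CPM of at least 5 they numbered 255, 192, 376, 135, 214 and 277, and at 1.5-fold 1534, 1377, 2322, 1018, 1606 and 1834. Without a CPM filter the Sp8 cKO against wildtype gave 973. In the same order, log2 changes of the suprabasal to basal ratio were 0.08, -0.27, -0.41, -0.35, -0.49 and -0.14 on sums and -0.21, -0.24, -0.59, -0.030, -0.39 and -0.36 on means of log2 CPM, where each gene of a group weighs the same and the first reversed. Per kilobase the third was -0.39. Those of the wound to basal ratio were 0.29, 0.21, -0.18, -0.08, -0.47 and -0.39 on sums and 0.38, 0.16, 0.0020, -0.22, -0.38 and -0.16 on means, where the third reversed. Per kilobase the second was 0.19 and the last -0.35. By their construction the means weigh scarce Krt77 and Krt15 like the abundant genes.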

Other observations

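Krt42, a type I keratin gene known from the mouse nail unit, was examined after it appeared among the genes that share sequence with Krt14 and Krt17. It lies beside Krt17 on chromosome 11, from 100262882 to 100269871 (GRCm38). It stood at 408.2 CPM in wildtype, 258.4 in the Sp6 cKO, 226.2 in the Sp8 cKO and 128.4 in the double cKO, so each single knockout was below wildtype and the double cKO was the lowest. Against wildtype it was 1.58-fold lower in the Sp6 cKO (95% interval 1.52 to 1.64), 1.80-fold lower in the Sp8 cKO (1.73 to 1.88) and 3.18-fold lower in the double cKO (3.03 to 3.34). Within batch 1 it was 2.01-fold lower in the double cKO than in the Sp6 cKO (1.90 to 2.13) and 1.76-fold lower than in the Sp8 cKO (1.66 to 1.87). Its neighbour Krt17 differed from wildtype by log2 ratios of 0.06, -0.20 and 0.04 in the same libraries. Krt42 shares 3.16% of the 31-base words of Krt17.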
